A study of Mus musculus with 6 samples.

Results

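The hepatocyte ABC exporters described here are 10 ATP-driven pumps that move bile acids, phospholipid, sterols and conjugates out of the liver cell. They were chosen by gene symbol for transporter function, with the values of this contrast for Abcc3, Abcg5 and Abcg8 already known, so what follows is a description of their levels and no independent test. All 10 were found among the 16426 genes listed in the tables, and all 10 passed the filter on low counts that left 12230 genes. Of these, 7 are counted as canalicular (Abcb11, Abcb4, Abcc2, Abcg2, Abcb1a, Abcg5 and Abcg8) and 3 as basolateral (Abcc3, Abcc4 and Abcc6).

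The study profiled total RNA from 6 livers of wild-type male mice of mixed B6:sv129 background, 7 to 12 weeks old. In the scramble group, 3 livers carried an AAV8 vector with a scrambled short hairpin RNA (shRNA-Scramble). In the knockdown group, 3 livers carried AAV8 with a hairpin against S1pr2 (shRNA-S1PR2), a G protein-coupled receptor for sphingosine-1-phosphate. Both vectors were injected into the tail vein, and AAV8 reaches mainly hepatocytes. Per the series text, both groups drank dexamethasone, a synthetic glucocorticoid, at about 0.84 mg/kg for 7 days, and no animal without it was analysed here. Since nothing in the labels ties each liver of a group to its own animal, the p-values reflect the spread between these 6 samples, which may be technical.

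As background, a hepatocyte has a canalicular (apical) face, which secretes bile into a channel shared with its neighbours, and a basolateral face turned to the sinusoidal blood. Canalicular pumps form bile: Abcb11 (BSEP) exports bile acids, Abcb4 moves phosphatidylcholine to the outer leaflet, Abcg5 and Abcg8 together export cholesterol and plant sterols, and Abcc2 (MRP2) exports glutathione and glucuronide conjugates. Basolateral Abcc3 (MRP3) and Abcc4 (MRP4) return conjugates and bile acids to the blood and are known to increase in cholestasis. The gene ontology terms in the deposited tables place Abcb11, Abcb4, Abcc2 and Abcb1a at the intercellular canaliculus and Abcg2 and Abcg8 at the apical membrane. They place Abcc3 at the basolateral membrane, give Abcc6 both faces, and name neither face for Abcg5 and Abcc4, whose side was taken from textbook knowledge.

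Abcg5 and Abcg8 are neighbours on chromosome 17, transcribed away from each other, and the stretch between their starts is upstream of both. It is printed because both genes rose in these livers. The 109 bases lie at chr17:84683012-84683120 of GRCm38.p6, plus strand, from the RefSeq promoter table; Abcg5 starts just before the first base and reads leftwards, and Abcg8 starts just after the last and reads rightwards. Capitals mark matches to the GATA factor site AGATAA, which reads TTATCT on the other strand.

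Abcg5-Abcg8: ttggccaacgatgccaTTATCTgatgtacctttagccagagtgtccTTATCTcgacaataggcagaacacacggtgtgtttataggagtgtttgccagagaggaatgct

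The stretch held 2 matches, at positions 17 and 47. In the table's windows of 300 bases (250 before a start and 50 after it), the Abcg5 window held 3 matches and so did the Abcg8 window that overlaps it, since these windows share the bases. At least 1 match was found in 11.2% of all 32851 windows of this length, and 3 or more in 0.107%. The nuclear receptor half-site AGGTCA was not found in these windows, against 16.3% of all windows. A match is only a run of letters and says nothing about binding. Of the members, 8 had entries in the table, with 12 windows; Abcc3 and Abcc6 had none.

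S1pr2 (Entrez 14739), the targeted gene, checks the labels. Its level was 4.41, 5.23 and 6.66 CPM (counts scaled to library size, with factors from the trimmed mean of M-values) in scramble livers 1, 2 and 3, against 3.04, 2.21 and 2.23 in the knockdown livers in the same order, so the groups did not overlap. The log2 fold change was -1.12 ± 0.24 (SE), with an adjusted p of 0.0301 in the edgeR quasi-likelihood test over all genes. The exact two-sided permutation test over the 20 assignments of the livers gave 0.1, the smallest p that 3 against 3 allows. Leaving out a liver ended the S1pr2 call in 4 of 6 cases, with an adjusted p of 0.0785 without the scramble liver numbered 2, 0.0962 without scramble 3, 0.117 without knockdown 2 and 0.101 without knockdown 3. The libraries held 16558775 to 17410160 expected counts, which are the fragments assigned to genes by an estimate that splits shared reads.

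Among the exporters, 3 rose in the knockdown livers, none was called lower and 7 did not pass. A gene was called at an edgeR adjusted p under 0.05 over all 12230 genes. At this threshold 7.66% of all genes tested were called, 3.02% higher and 4.64% lower. These shares are given as background only, because the same contrast helped to choose the members. Abcc3, at the basolateral face, rose most, and the sterol pair Abcg5 and Abcg8 rose by less than a doubling. Abcc2 and Abcg2, which export conjugates and drugs at the canaliculus, had lower CPM in every knockdown liver without passing. The bile acid and phospholipid pumps Abcb11 and Abcb4 overlapped between groups.

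**Figure D1:**
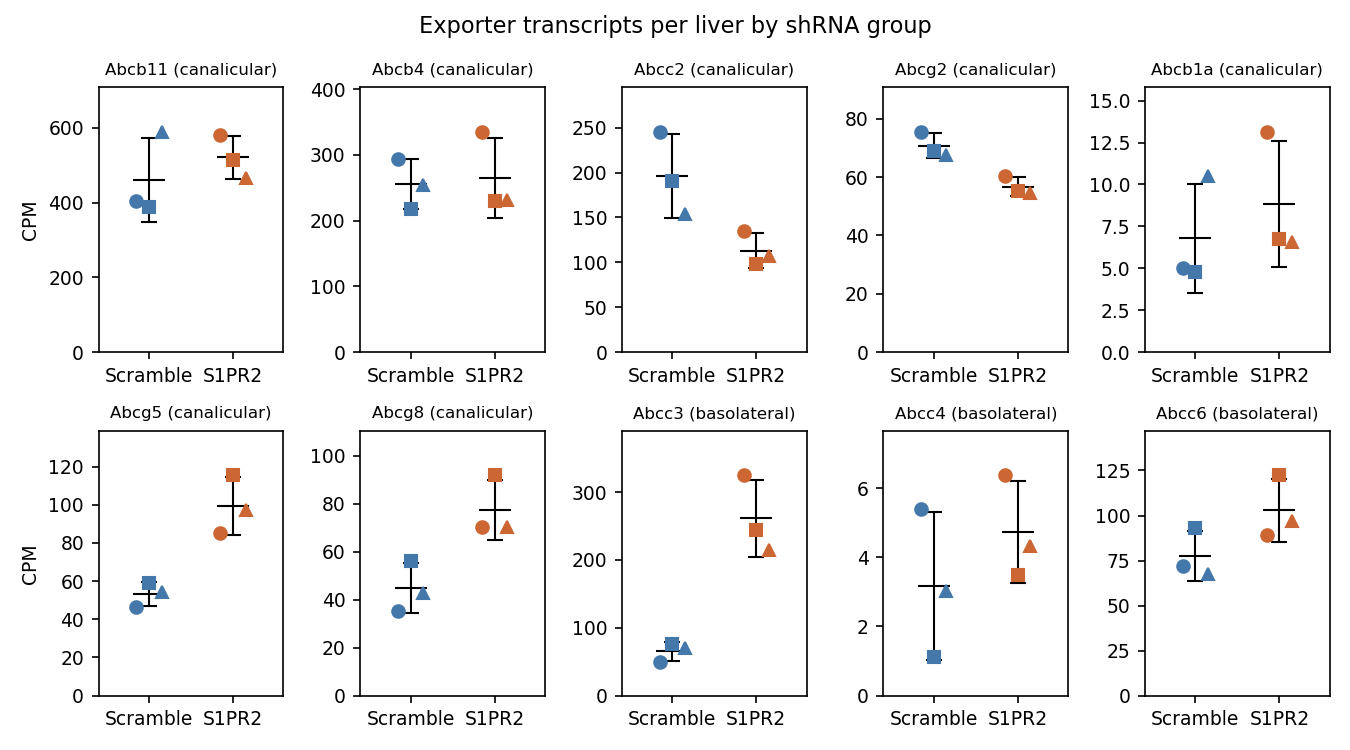
Normalised CPM (linear axis from 0) of each exporter in each liver, with circles, squares and triangles for livers 1, 2 and 3 of a group and bars for the group mean ± SD (n = 3). Abcc3, Abcg5 and Abcg8 lie higher in all 3 knockdown livers, and Abcc2 and Abcg2 lie lower in all 3 on this CPM scale.

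Abcc3 (Entrez 76408) encodes MRP3, which carries glucuronides and bile acids across the basolateral membrane into blood. It read 49.0, 76.8 and 70.0 CPM in scramble livers 1, 2 and 3, against 325.1, 244.7 and 214.9 CPM in the knockdown livers in the same order. The lowest knockdown liver was thus well above the highest scramble liver. The group means were 65.3 ± 14.5 and 262 ± 57.0 CPM (SD, n = 3), a 4.01-fold difference. On the log2 scale Abcc3 rose by 2.00 ± 0.22 (SE), with an adjusted p of 0.00524 from the edgeR fit. The call held in all 17 other settings tried, which vary the normalisation, filter, test, design or livers, or test FPKM with limma, with log2 fold changes of 1.81 to 2.15. In bulk tissue, more RNA per cell and more cells of a type that expresses the gene cannot be told apart.

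Cholangiocytes, the cells lining bile ducts, also express Abcc3, so their markers are given beside it. The summed CPM of the 6 cholangiocyte markers reported here (Krt7, Krt19, Epcam, Sox9, Spp1 and Cftr) was 27.7 to 54.7 in scramble livers against 45.3 to 105.2 in the knockdown livers, which overlap. Of these, 5 could be tested and none of the 5 was called by edgeR. Cftr was near 0 in both groups, and the duct keratin Krt19 had a mean of 5.92 CPM in scramble livers and 3.01 CPM with knockdown. The part of these cells in the Abcc3 values was not tested. None of 10 hepatocyte markers was called. Their summed CPM was 124920 to 152870 in scramble livers against 78963 to 115820 in the knockdown livers, which do not overlap. Alb, the albumin gene, dominates this sum and did not overlap either. It read 103260 to 129030 CPM in scramble livers against 56835 to 85603 CPM in the knockdown livers (edgeR adjusted p 0.198). The other 9 summed to 21660 to 25387 CPM in scramble and 22128 to 31795 CPM in knockdown livers, which overlap. Alb was set apart after the values were seen. Of the 10 markers, 9 had log2 fold changes below 0, with a median of -0.20 over all 10. Apoa1 alone was above 0, at 1.08 (edgeR adjusted p 0.199). Its mean was 5170 CPM in scramble and 10943 CPM in knockdown livers, so it weighs on the sum of the other 9.

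Abcg5 (Entrez 27409) and Abcg8 (Entrez 67470) encode the subunits of the obligate sterol export heterodimer. Abcg5 read 46.4, 59.1 and 54.2 CPM in scramble livers 1, 2 and 3, against 85.3, 115.5 and 97.3 CPM in the knockdown livers in the same order. Abcg8 read 35.5, 55.9 and 42.9 CPM against 70.1, 91.9 and 70.4 CPM in the same order. Neither gene overlapped between groups, and liver 2 was the highest of its group for both. Abcg5 rose by 0.90 ± 0.14 on the log2 scale (SE; edgeR adjusted p 0.0130) and Abcg8 by 0.79 ± 0.19 (0.0449).

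These calls were less steady than that of Abcc3. Abcg8 was the member just inside the threshold, and its call was lost on leaving out scramble 1 (adjusted p 0.0933), scramble 3 (0.134), knockdown 1 (0.0707), knockdown 2 (0.14) or knockdown 3 (0.091). The Abcg5 call was lost without scramble liver 3 (0.0501) or knockdown liver 2 (0.0519). Leaving out a liver also lowered the number of genes called, from 937 to between 231 and 643.

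Within a liver the ratio of Abcg5 to Abcg8 ranged from 1.70 to 2.20. FPKM, the deposited fragment value per kilobase of transcript scaled to depth, corrects for transcript length and so allows genes to be compared. The ratio of Abcg5 to Abcg8 FPKM was 2.12, 1.70 and 2.06 in scramble livers against 1.97, 2.00 and 2.20 in the knockdown livers, so the groups overlapped. The gene spans of this pair overlap in the RefSeq annotation on opposite strands, where a second Abcg8 start lies upstream, on the Abcg5 side. The strand handling of the counts is not given in the sources used here, so reads from the shared part cannot be told apart.

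Abcc2 (Entrez 12780), which exports bilirubin glucuronide and glutathione conjugates into bile, had lower values with knockdown and did not pass. Its values were 245.6, 190.1 and 153.4 CPM in scramble livers 1, 2 and 3, against 134.7, 97.9 and 106.6 CPM in the knockdown livers in the same order. The lowest scramble liver stayed above the highest knockdown liver in CPM. In FPKM, which carries no TMM factor, the groups overlapped, at 26.9 in scramble liver 3 and 28.4 in knockdown liver 1 (limma adjusted p 0.139). The log2 fold change was -0.80 ± 0.20 (SE), and the edgeR adjusted p of 0.0514 made it the member just outside the threshold. It was called with no filter on low counts (adjusted p 0.0416), by DESeq2 (0.00323) and without knockdown liver 1 (0.0499).

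Abcg2 (Entrez 26357), the breast cancer resistance protein, which exports sulfate conjugates, urate and many drugs, had the lowest coefficient of variation of the members in CPM. It read 75.6, 69.0 and 67.6 CPM in scramble livers against 60.6, 55.1 and 54.5 CPM in the knockdown livers. All knockdown CPM values were below all scramble values, although the log2 fold change was only -0.32 ± 0.10 (SE) and did not pass (edgeR adjusted p 0.0912). In FPKM the groups overlapped (limma adjusted p 0.445). The coefficient of variation of its CPM was 6.04% in scramble livers against 5.87% in the knockdown group, whereas that of Abcc4 was 67.3% and 31.3%. In FPKM that of Abcg2 was 14.2% in the knockdown group, above Abcg5 at 8.22%, Abcc6 at 10.6% and Abcg8 at 11.3%.

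Abcb11 (Entrez 27413), the bile salt export pump and rate-limiting step of bile acid secretion, had the highest FPKM of the members in all 6 livers. Its CPM was 404.4, 389.2 and 589.8 in scramble livers against 582.0, 514.5 and 467.0 in the knockdown livers. Scramble liver 3 was the highest of all 6, and the groups overlapped. The log2 fold change was 0.18 ± 0.20 (SE; edgeR adjusted p 0.641).

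Abcb4 (Entrez 18670), the phosphatidylcholine floppase whose lipid shields ducts from bile acids, also overlapped. It read 294.0, 218.4 and 253.7 CPM in scramble livers against 335.6, 229.5 and 231.0 CPM in the knockdown livers, with knockdown liver 1 the highest. The log2 fold change was 0.06 ± 0.19 (SE; edgeR adjusted p 0.897), and its sign changed between settings, from -0.15 to 0.19. The ratio of Abcb11 to Abcb4 FPKM was 1.14, 1.48 and 1.93 in scramble livers against 1.44, 1.87 and 1.68 in the knockdown livers. These ranges overlap. Counts of Abcb4 were not whole in all 6 libraries, as when reads are shared with similar genes, which also enters this ratio.

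Abcb1a (Entrez 18671) encodes a P-glycoprotein, a drug efflux pump, and was scarce. It read 5.02, 4.79 and 10.5 CPM in scramble livers against 13.2, 6.74 and 6.56 CPM in the knockdown livers, with a log2 fold change of 0.38 and a larger SE of 0.41 (edgeR adjusted p 0.632). The lowest fold change over the settings was -0.03. Its counts were not whole numbers in all 6 libraries, as happens when reads are shared. Abcb1a, Abcb1b and Abcb4 lie next to each other on chromosome 5, and the split between the near-identical copies Abcb1a and Abcb1b is uncertain. Abcb1b (Entrez 18669) read 30.4, 19.6 and 22.9 CPM in scramble livers against 65.8, 17.3 and 21.7 CPM in the knockdown livers. Knockdown liver 1 was thus the highest of all 6 for each of the 3 neighbours.

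Among the other basolateral members, Abcc4 (Entrez 239273), which cotransports bile acids with glutathione and exports cyclic nucleotides, was the scarcest. It read 5.39, 1.12 and 3.03 CPM in scramble livers against 6.37, 3.49 and 4.33 CPM in the knockdown livers, and its log2 fold change was 0.58 ± 0.52 (SE; edgeR adjusted p 0.556). The count in scramble liver 2 was 18, so counting error alone is large there. Abcc6 (Entrez 27421) promotes ATP release from hepatocytes, and its loss causes pseudoxanthoma elasticum, a disorder of ectopic mineralisation. It read 72.0, 93.0 and 67.5 CPM in scramble livers against 89.4, 122.4 and 96.7 CPM in the knockdown livers. A single scramble liver, liver 2, lay above the lowest knockdown liver in CPM, though not in FPKM (17.1 against 19.7), and the log2 fold change was 0.41 ± 0.17 (SE; edgeR adjusted p 0.180).

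**Figure D2:**
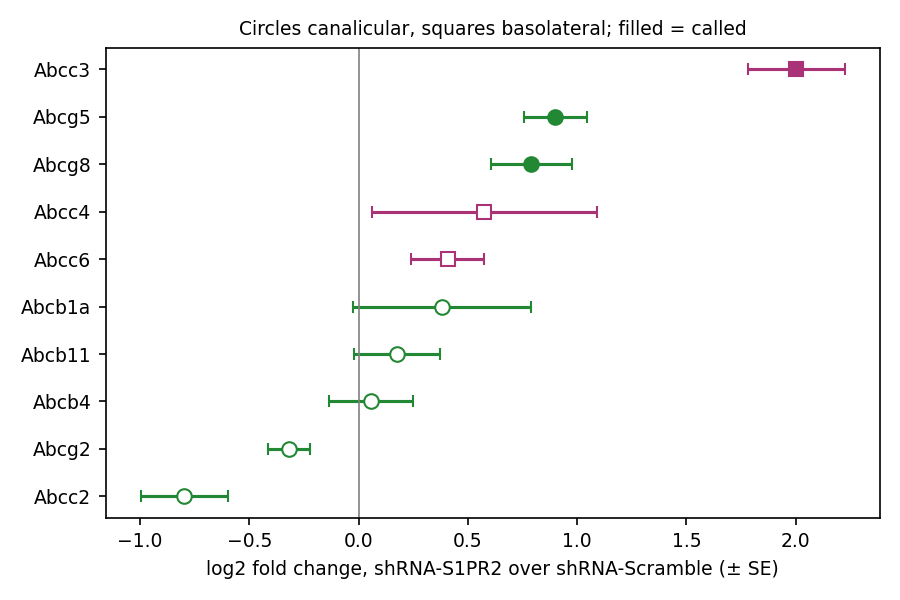
Log2 fold change of each exporter, shRNA-S1PR2 over shRNA-Scramble, with its standard error from the edgeR fit of 3 against 3 livers; circles are canalicular, squares basolateral, and filled symbols passed the threshold. Abcc3 stands at 2.00, Abcg5 and Abcg8 at 0.90 and 0.79, and Abcc2 at -0.80.

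By membrane face, 1 of 3 basolateral members (Abcc3) and 2 of 7 canalicular members (Abcg5 and Abcg8) were called higher. The median log2 fold change was 0.58 for the basolateral and 0.18 for the canalicular genes. It was 0.40 over all 10 members and 0.01 over all genes tested. With 3 genes, the basolateral median is the value of Abcc4, the scarcest member, which was not called (edgeR adjusted p 0.556). Values of this contrast helped to choose the members, so these medians are a description only. In CPM the groups did not overlap for 3 members that were higher and 2 that were lower. Over all genes tested this held for 31.9%, of which 15.1% of all genes were higher and 16.8% lower.

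The order of the members by FPKM shifted with these differences. In the scramble livers the mean FPKM was 88.3 for Abcb11, 58.8 for Abcb4, 34.2 for Abcc2, 26.8 for Abcg2 and 22.2 for Abcg5. It was 14.6 for Abcc6, 12.2 for Abcc3, 11.5 for Abcg8, 1.28 for Abcb1a and 0.533 for Abcc4. Of these neighbours, the ranges over livers overlapped for Abcc2 with Abcg2, Abcc6 with Abcc3, Abcc3 with Abcg8, and Abcb1a with Abcc4. In the knockdown livers Abcc3 was the third, at 55.0 ± 16.5 FPKM (SD, n = 3), overlapping Abcb4 (68.5 ± 21.7) above it and Abcg5 (45.7 ± 3.75) below it. Abcg2 (23.9), Abcg8 (22.3), Abcc2 (22.0) and Abcc6 (21.4) followed with overlapping ranges, and Abcb1a (1.89) and Abcc4 (0.903) came last.

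Summed over the 3 basolateral members, FPKM was 24.1, 31.3 and 26.6 in scramble livers against 95.7, 72.2 and 64.0 in the knockdown livers. The sum of the 7 canalicular members was 250.5, 217.5 and 260.8 in scramble livers against 353.0, 272.4 and 261.1 in the knockdown livers. The basolateral share of the total was therefore 8.78, 12.6 and 9.25% in scramble livers against 21.3, 20.9 and 19.7% in the knockdown livers, and the groups did not overlap. The mean share was 10.2 ± 2.06% in scramble livers against 20.7 ± 0.861% in the knockdown group (SD, n = 3).

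This shift came from Abcc3 by arithmetic. With Abcc3 left out of both sums, a calculation added after the values were seen, the share was 5.57, 7.35 and 4.87% in scramble livers against 5.82, 8.29 and 7.29% in the knockdown livers, which overlap. Abcc3 alone made up 3.40, 5.62 and 4.60% of the summed FPKM of the 10 exporters in scramble livers against 16.5, 13.8 and 13.4% in the knockdown livers. Abcb11 held 28.7 to 39.5% in scramble livers against 29.6 to 30.1% in the knockdown livers.

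**Figure D3:**
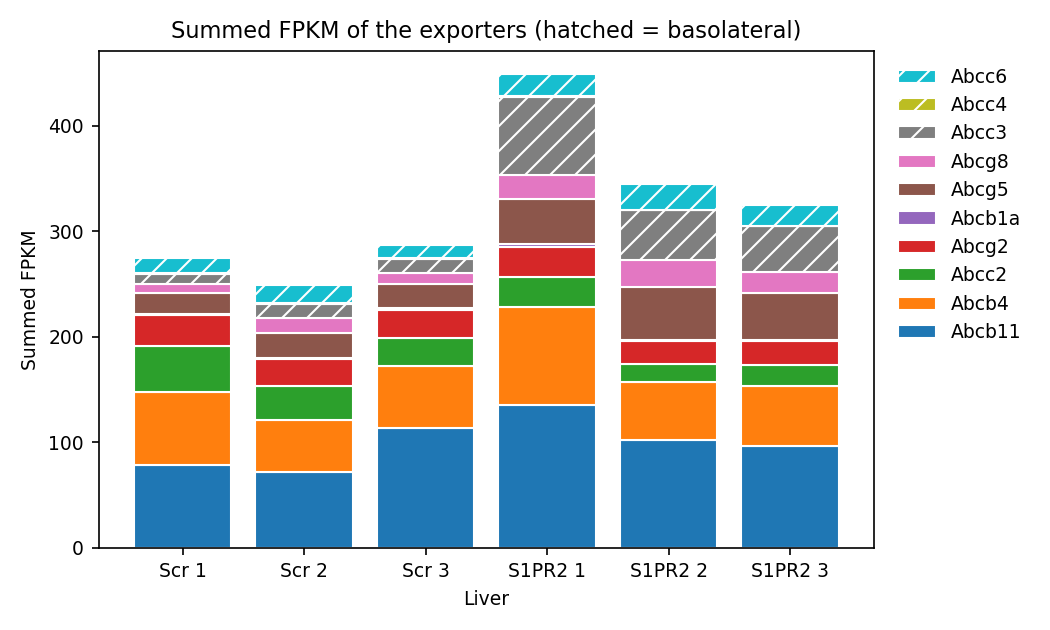
FPKM of the 10 exporters stacked for each liver (linear axis from 0, Scr for shRNA-Scramble), with basolateral genes hatched. The Abcc3 band grows from 9.35 to 14.0 FPKM in the scramble livers to 43.5 to 73.9 FPKM in the knockdown livers.

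Within each liver, the related conjugate pumps at the 2 faces exchanged rank. The ratio of Abcc3 to Abcc2 FPKM was 0.215, 0.436 and 0.492 in the scramble livers, where Abcc2 was the more abundant transcript. It was 2.60, 2.69 and 2.17 in the knockdown livers, where Abcc3 was. The ratio of Abcc3 to Abcb11 was 0.119, 0.193 and 0.116 in scramble livers against 0.547, 0.466 and 0.451 in the knockdown livers. Such a ratio shows unequal change of its 2 genes and not which of them changed.

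**Figure D4:**
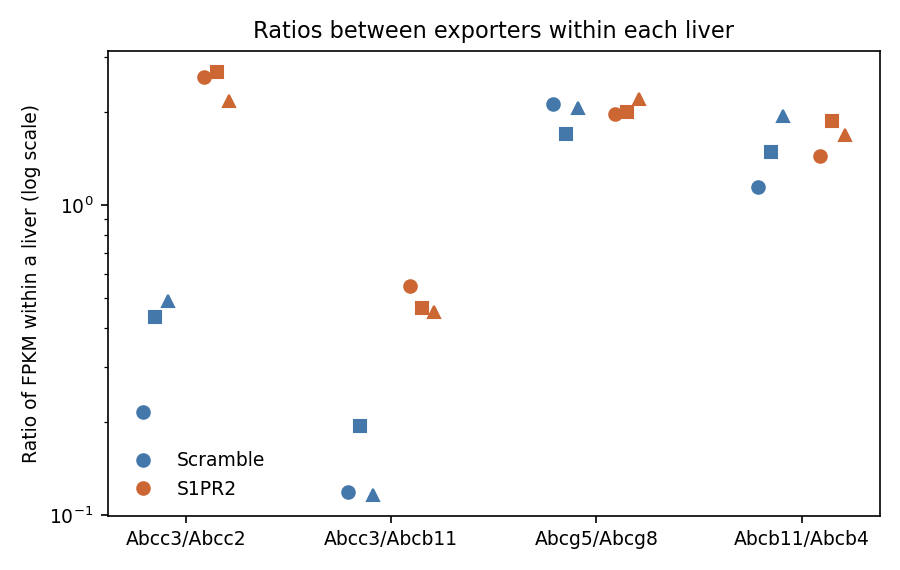
Ratios of FPKM between exporters within each liver (log axis), with circles, squares and triangles for livers 1, 2 and 3 and colour for the shRNA group. Abcc3/Abcc2 moves from 0.215 to 0.492 up to 2.17 to 2.69 without overlap, while Abcg5/Abcg8 and Abcb11/Abcb4 overlap between groups.

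Genes of the rest of the ABC superfamily were called in both directions. Of 39 other ABC genes found, 31 were tested, of which 2 were called higher, 6 lower and 23 neither. Their median log2 fold change was -0.00. The exporters' median of 0.40 is no independent comparison, since values of this contrast helped to choose them. Abca8b rose by 0.99 ± 0.23 (SE; edgeR adjusted p 0.0444) and Abcg1, which loads cholesterol onto HDL, by 1.17 ± 0.29 (0.0498). Abcf2 fell by 0.73 ± 0.10 (0.00777), Abca1 by 0.90 ± 0.15 (0.0142) and Abcd4, a lysosomal cobalamin transporter, by 0.99 ± 0.18 (0.0199). Counts of Abca8b and Abcd4 were not whole in any library, so reads shared with similar genes enter them. The Abcf2 call held in all 17 other settings. Leaving out a liver ended the Abca8b call without scramble 2 (0.0811) or 3 (0.0827) or each knockdown liver in turn (0.0842 to 0.121), and the Abcd4 call without scramble 2 (0.0611) or 3 (0.0646) or knockdown 1 (0.0545) or 3 (0.0745).

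The opposite calls of Abca1 and the sterol pair concern genes known to share a regulator. Abca1, Abcg1, Abcg5 and Abcg8 are textbook targets of the liver X receptors (LXR), nuclear receptors activated by oxysterols. Abca1 exports cholesterol to apolipoprotein A-I across the basolateral face. It read 147.9, 158.2 and 111.9 CPM in scramble livers against 79.1, 69.4 and 75.6 CPM in the knockdown livers, with no overlap. Among 6 other LXR targets, Abcg1 was called higher, Abca1 lower and 4 neither, with a median log2 fold change of 0.05. The Abca1 call was lost without knockdown 2 (adjusted p 0.0740) or 3 (0.0508) and on unfiltered FPKM (0.0606). The Abcg1 call, at the edge of the threshold, held in 5 of 17 other settings; it was lost on leaving out each liver except scramble 3 (0.0891 to 0.143) and with upper-quartile factors (0.0517). The transcript of LXR alpha, Nr1h3, differed by a log2 value of -0.08 ± 0.12 (SE) and was not called (edgeR adjusted p 0.764).

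Among 15 transcriptional regulators, 2 were called higher, 1 lower and 12 neither, with a median of -0.07. Nfe2l2, which encodes NRF2, an activator of antioxidant and conjugation genes, read 75.9, 72.4 and 74.5 CPM in scramble livers against 135.7, 92.6 and 113.2 CPM in the knockdown livers. It rose by 0.62 ± 0.15 (SE; edgeR adjusted p 0.0433). Keap1, which targets NRF2 for degradation, fell by 0.45 ± 0.10 (0.0318). Ahr, the aryl hydrocarbon receptor, rose by 1.51 ± 0.32 (0.0441). The bile acid receptor FXR (Nr1h4) was lower in every knockdown liver without passing, at -0.38 ± 0.16 (edgeR adjusted p 0.182). The 3 calls were not steady: that of Nfe2l2 held in 8, of Keap1 in 7 and of Ahr in 10 of 17 other settings. The Nfe2l2 call was lost on leaving out each liver except knockdown 2 (0.069 to 0.127) and on FPKM (0.0603 to 0.0788), that of Keap1 whichever liver was left out (0.0611 to 0.131) and on FPKM (0.166 to 0.181), and that of Ahr on leaving out each liver except scramble 1 (0.0571 to 0.124) and with no filter on low counts (0.0708). No direction reversed.

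Abcc3 is known as a target of NRF2, and other NRF2 targets are given for comparison. Of 12 such genes 11 were tested, all 11 had a log2 fold change above 0 and their median was 0.72, but a single one, Gclc, was called. Knockdown liver 1 weighs on this: without it, in a calculation added after the values were seen, the mean CPM was above scramble for 9 and below it for 2 (Cbr3 and Nqo1), with a median log2 ratio of 0.36. Gclc, the catalytic subunit of glutathione synthesis, read 152.3, 150.6 and 144.6 CPM in scramble livers against 438.5, 238.4 and 314.6 CPM in the knockdown livers, and rose by 1.15 ± 0.21 (SE; edgeR adjusted p 0.0208). The Gclc call was lost without scramble 1 (0.0569), 2 (0.0704) or 3 (0.0752) or knockdown 3 (0.0631). Abcc3 and Gclc were both highest in knockdown liver 1, but so were genes outside this list, such as Abcb4 and the cholangiocyte marker Spp1. Whether the regulator and target transcripts are linked was not tested.

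Targets of other receptors that act on these exporters are given by their counts, and the target groups were not tested against each other. Of 8 targets of the xenobiotic receptors CAR and PXR, which also induce Abcc2 and Abcc3, 1 was called lower and 7 were not called (median -0.10). That gene, Cyp2b10, fell by 2.98 ± 0.57 (SE; edgeR adjusted p 0.0320), and its counts were not whole in all 6 libraries, as when reads are shared with similar genes. Its call was lost on leaving out each liver except knockdown 3 (0.06 to 0.101) and with no filter on low counts (0.0573). The CAR transcript Nr1i3 stood at 0.05 ± 0.13 on the log2 scale (edgeR adjusted p 0.863) and the PXR transcript Nr1i2 at -0.07 ± 0.34 (0.925). None of 4 FXR targets was called (median 0.21), and of 12 PPAR alpha targets Acot1 alone was called, higher by 1.15 ± 0.15 (0.00633, with counts shared in all 6 libraries).

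**Figure D5:**
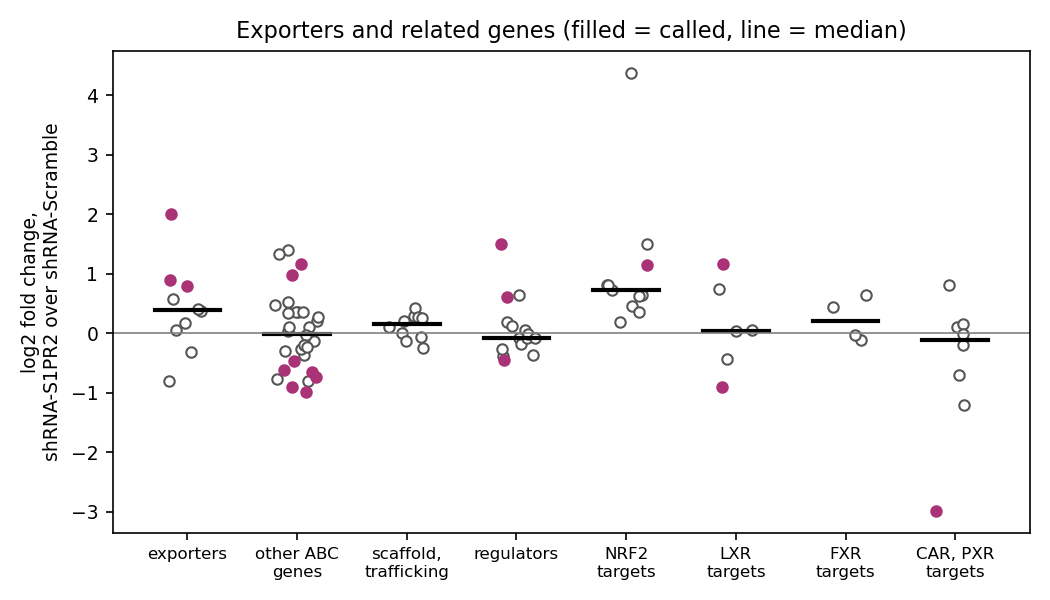
Log2 fold change, shRNA-S1PR2 over shRNA-Scramble, of each tested exporter and of related genes by group, with filled points for called genes and a black line at each group's median. The exporters, chosen with values of this contrast known, have a median of 0.40, the other ABC genes -0.00 and 11 NRF2 targets 0.72. Among the NRF2 targets the highest open point is Gsta1 at 4.38 (edgeR adjusted p 0.211). Gsta1 read 54.0 CPM in knockdown liver 1 and 2.45 and 2.28 in knockdown livers 2 and 3.

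Genes that place or assist the canalicular pumps were not called. This held for all 10 scaffold and trafficking genes, such as radixin (Rdx) and the motor Myo5b, with a median log2 fold change of 0.16. It also held for all 5 other exporters and flippase subunits tested. Of these, Tmem30a, the partner subunit of the canalicular flippase Atp8b1, came nearest, at -0.42 ± 0.11 (SE; edgeR adjusted p 0.0509).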

How the data were processed

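Libraries from total RNA of 6 livers were read with DNB sequencing. The submitters' processing notes name RSEM 1.2.12, HISAT2, Bowtie2 and DESeq2 and the mouse build mm9. What each did, the read filters and the strand handling were not given in the sources used here. Deposited values are RSEM expected counts, not scaled to depth, and FPKM, scaled by the authors to transcript length and depth. Totals were 16558775 to 17410160 expected counts per library; between 24.5 and 25.2% of listed genes had fractional counts. No sample was left out.

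Expected counts were rounded to whole numbers, filtered with filterByExpr (minimum count 10), normalised by TMM and tested with the two-sided quasi-likelihood F test of edgeR 4.0.16 (R 4.3.3, robust dispersion, group as the only factor), with Benjamini-Hochberg adjustment over 12230 genes. FPKM sums and ratios were taken within a liver and carry no TMM factor. The code was tested on simulated counts. The members and all gene lists were chosen with earlier results of these data known. Named genes are the 10 members, S1pr2, Abcb1b, 5 regulators whatever their values, and called genes per list, at most 3 per direction by p. The cholangiocyte markers, Alb, Apoa1, Cbr3, Nqo1, Gsta1, Tmem30a, Rdx and Myo5b were added after their values were seen. Some cholangiocyte markers are not reported here, and the reported subset was set after the values were seen. Alternatives were other normalisations and filters, DESeq2 1.42.0, limma 3.58.1 on voom weights and on log2-transformed FPKM (pseudocount 0.1 or 1), non-robust dispersion, a replicate block and each liver left out. RefSeq promoter sequences (GRCm38.p6) were searched on both strands.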

Additional observations from a re-analysis of the deposited data

How the results depend on the processing

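No member changed direction among those called. The members called numbered 3 in the edgeR fit, 1 to 3 with a liver left out and 3 or 4 elsewhere. Genes called numbered 937, against 1466 with DESeq2 and 231 to 643 with a liver left out. Genes called higher numbered 369, against 616 with DESeq2, 570 on log2 FPKM with a pseudocount of 0.1 and 78 to 266 with a liver left out. Genes called lower numbered 568, against 254 on log2 FPKM with a pseudocount of 0.1, 243 with a pseudocount of 1, 205 without a filter and 153 to 377 with a liver left out. The share of calls that were lower was 60.6% with TMM, 48.5% with upper-quartile factors and 30.6 to 31.6% on FPKM, where the median of all genes was 0.10 to 0.16 above 0 on the log2 scale. The S1pr2 call was also lost on FPKM (adjusted p 0.0677 to 0.0991). The basolateral share was 10.2% and 20.7% in scramble and knockdown livers, 5.02% and 15.7% without Abcc6, and 5.93% and 7.13% without Abcc3, by construction of the sums. The cause of the other differences was not tested.

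Same-numbered livers did not pair: deviations from the group means correlated at -0.06, 0.22 and -0.12 across 12230 genes, and a single number of 3 was its own best match. With a replicate block 808 genes were called, Abcc2 passed (adjusted p 0.0319) and S1pr2 did not (0.0684).

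Low counts limit Abcc4 (18 to 126 per library) and Abcb1a (77.1 to 260.4), and 3 livers per group limit all calls.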

Other observations

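Markers of other liver cells were read beside the exporters, since Abcb1a is also expressed by endothelium. Of 10 endothelial markers 4 were called higher, among them Tie1 (log2 fold change 0.73 ± 0.14, SE; edgeR adjusted p 0.0242), Kdr (0.57 ± 0.11, 0.0253) and Cdh5 (0.49 ± 0.10, 0.0260), which encode vascular receptors and an adhesion protein. Each of these 3 calls was lost on leaving out some livers: Tie1 without 4 of 6 (0.053 to 0.104), Kdr without 5 (0.0583 to 0.106) and Cdh5 whichever liver was left out (0.0519 to 0.112). The summed CPM of the 10 was 258 to 292 in the scramble and 323 to 363 in the knockdown livers. None of 10 macrophage markers was called, although all 10 had log2 fold changes above 0 and their summed CPM was 129 to 232 against 182 to 355. None of 10 stellate and fibroblast markers was called (215.6 to 472.9 against 329.2 to 521.5 CPM), nor either of 2 erythroid markers. Of the lymphocyte markers Ptprc alone passed the filter and it was not called. The part of these cells in the exporter values was not tested.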
